A study of Mus musculus with 12 samples.

Results

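Mouse microglia of the immortalised line BV-2 (microglia are the macrophages that reside in the brain) were given bacterial lipopolysaccharide (LPS) together with curcumin, a polyphenol of turmeric, and are compared here with BV-2 cells given LPS alone. The arrays were chosen by the treatment label, which gives 3 LPS+curcumin arrays and 3 LPS arrays, 6 of the 12 in the series. LPS was used at 100 ng/ml and curcumin at 20 µM, for 6 h, and a further 3 arrays each hold cells left untreated and cells given 20 µM curcumin alone. The labels name neither a vehicle nor a time for the untreated cells, and all groups are the same single line. Per the file headers, the arrays numbered 1 in the 4 groups lie on 1 slide and were scanned together, as do those numbered 2 and those numbered 3. Each group holds the same position on every slide, so treatment and slide position cannot be told apart. The labels do not say whether the replicates are separate cultures, so the p-values measure only the spread between these arrays, which may be technical.

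LPS is sensed by Toll-like receptor 4 with its partners CD14 and MD-2. One arm of the signal runs through MYD88 to NF-kB and the MAP kinases and switches on cytokine and chemokine genes such as Tnf, Il1b and Il6. The other arm runs through TRIF to IRF3 and interferon beta, whose receptor then acts through JAK kinases, STAT2 and IRF9 on the interferon-stimulated genes. Curcumin reacts with thiols and is known to release the transcription factor NRF2 from its inhibitor KEAP1, which raises antioxidant and haem-degrading enzymes. The question put here is how the transcripts of these pathways stand when curcumin accompanies LPS.

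Expression is given as the log2 of the processed spot signal minus the 75th percentile of its array, so a level of 0 is the array's 75th percentile and a difference of 1 is a 2-fold difference. The share of spots well above background ran from 58% to 65.9% over the 6 arrays. Of the 9 microglia and macrophage markers listed, 8 are on the array (Aif1, Csf1r, Itgam, Adgre1, Ptprc, Spi1, Tyrobp and Fcer1g), and all 8 were well above background on all 6 arrays. Their summed level was 137 to 220 times the 75th percentile on the LPS arrays and 159 to 244 times on the LPS+curcumin arrays. Among markers of other cells, Gfap, Aqp4, Aldh1l1 and Gja1 of astrocytes, Snap25, Gad1, Slc17a7 and Nefl of neurons, Mog of oligodendrocytes, Col3a1, Dcn and Lum of fibroblasts, Cdh5 and Cldn5 of endothelium, Cd3d, Cd8a and Ms4a1 of lymphocytes, and Epcam and Cdh1 of epithelium were well above background on none of the 6. Rbfox3 and Tubb3 of neurons, Mag, Cnp and Mobp of oligodendrocytes, Kdr of endothelium, Cd3e and Cd4 of lymphocytes and Krt5 of epithelium were well above background on all 6. The arrays cannot tell fewer cells of a kind from less RNA per cell.

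One array did not resemble its group. Across the genes tested LPS+curcumin replicate 1 correlated at r = 0.982 on average with the LPS arrays and at 0.945 with its own group, whereas replicate 2 correlated at 0.94 with LPS and 0.984 with curcumin alone, and replicate 3 at 0.923 and 0.985. Within slide 1 the LPS+curcumin array had 1226 genes at least 2-fold above and 915 at least 2-fold below its LPS neighbour. The counts were 3626 and 1703 within slide 2, and 7108 and 2442 within slide 3. The differences of slides 2 and 3 correlated at r = 0.814 across 18649 genes, those of slides 1 and 2 at 0.546 and those of slides 1 and 3 at 0.309. These correlations are across genes, which are not independent replicates. List counts are therefore given below with and without LPS+curcumin replicate 1, as are fitted differences of single genes that its removal moved by over 1.5 times in fold.

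Of 19319 genes and transcripts tested, 3890 were higher (20.1%) and 1687 lower (8.73%) with LPS+curcumin than with LPS, at a Benjamini-Hochberg adjusted p below 0.05 in a limma fit with the slide as a block. Without LPS+curcumin replicate 1 the counts were 8673 higher (44.9%) and 3196 lower (16.5%), and 5516 of the 5577 genes called with it kept their call and direction, 61 lost it and 0 reversed. Other single arrays left out also moved the count of called genes by over 1.5 times. For LPS+curcumin the counts were 1522 (897 higher, 625 lower) without replicate 2 and 3348 (2041 and 1307) without replicate 3. For LPS they were 1539 (909 and 630) without replicate 2 and 2238 (1376 and 862) without replicate 3. List counts given below with 1 of these arrays left out stand beside these counts of all 19319 genes. With slide 2 left out, 3 genes were called lower and 0 higher (1041 and 2076 at an unadjusted p below 0.05 by the same limma fit), and with slide 3 left out 484 and 471. With no slide block 2461 were higher and 1158 lower. After a normexp background correction of the raw spot signals in place of the scanner's own, 9 were higher and 76 lower. Genes called whichever 1 of the 12 arrays was left out were 778 higher (4.03%) and 583 lower (3.02%).

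The balance of higher and lower calls depended on how the arrays were scaled. Relative to the mean log2 signal of 7 spike-in control probes, the 75th percentile lay at -2.08 ± 0.65 (SD, n = 3) on the LPS+curcumin arrays and at -1.36 ± 0.143 (SD, n = 3) on the LPS arrays. The difference was 0.12, -0.86 and -1.42 within slides 1, 2 and 3, and -0.72 overall (exact permutation test, two-sided, p = 0.3, where 3 against 3 arrays allow no p below 0.1). With the 75th percentile the median difference over all genes was 0.32 and 69.8% of the calls were higher. The share was 50.2% after quantile normalisation (2089 higher, 2071 lower, median 0.04), 21.3% after scaling to each array's median (1258 and 4647, median -0.41), 24.3% after scaling to the spike-in probes (1171 and 3642, median -0.40) and 75.4% with the 75th percentile of the probes detected on all arrays (5230 and 1709, median 0.32). A gene is said below to hold on all 5 scalings when each of them called it in the same direction. That was so for 894 genes higher (4.63%) and 1446 lower (7.48%), and without LPS+curcumin replicate 1 for 1605 (8.31%) and 3019 (15.6%).

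**Figure D1:**
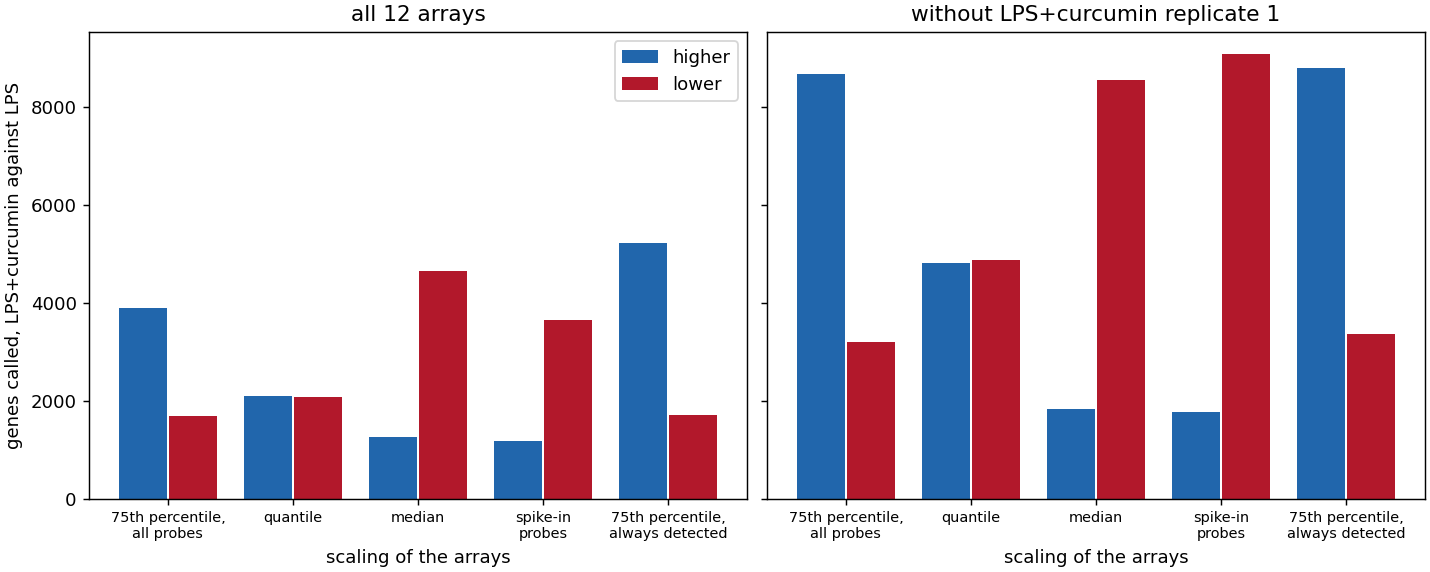
Genes called higher (blue) and lower (red) in LPS+curcumin against LPS, as counts on the vertical axis, under each of 5 scalings on the horizontal axis, with all 12 arrays (left) and without LPS+curcumin replicate 1 (right). Higher calls outnumber lower ones with either 75th percentile (3890 against 1687 with all probes), and lower calls outnumber higher ones with the median or the spike-in probes (1171 against 3642 with the spike-ins).

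The interferon-stimulated genes fell together. All 43 tested members of the list were lower with LPS+curcumin and 0 higher, against 8.73% of all genes lower, with a median difference of -3.51 beside 0.32 over all genes. LPS alone had raised all 43 above untreated, by a median of 4.60 (2 of them were well above background on no untreated array). With curcumin added the median over untreated was 0.96, and 16 of the 43 still exceeded untreated (25.2% of all genes did). The 43 without LPS+curcumin replicate 1 were again all lower, with a median of -4.44, and 42 of them (all but Oasl1) were lower on all 5 scalings of the 12 arrays. Of the 43, 36 were well above background on all arrays of both groups, and those 36 were all lower, with a median of -3.31. The other 7 passed the detection filter through the LPS arrays and not through the LPS+curcumin arrays. For Ifit2, which is among them, the reason was a spot marked as an outlier on LPS+curcumin replicate 2. The list was chosen with results of these arrays known, so its direction is a description.

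Zbp1, a sensor of Z-form nucleic acids that can start necroptosis, had levels of 2.17, 1.63 and 1.496 on LPS replicates 1 to 3 and -2.73, -5.84 and -5.09 on LPS+curcumin replicates 1 to 3. The 2 groups did not overlap, and the fitted difference was -6.32 ± 0.54 (SE; adjusted p = 0.000578). Irf7, the transcription factor that amplifies the interferon response, stood at 3.56, 3.07 and 3.43 with LPS and 0.71, -1.60 and -1.32 with both agents, a difference of -4.09 ± 0.42 (SE; adjusted p = 0.000982). In LPS+curcumin replicates 2 and 3 Irf7 was below the array's 75th percentile, and in replicate 1 above it. Isg15, the ubiquitin-like protein attached to targets during viral infection, stood at 6.26, 5.69 and 5.78 and 4.90, 2.71 and 2.84, so that replicate 1 lay closer to the LPS arrays than the other 2 did (difference -2.42 ± 0.42, SE; adjusted p = 0.00558). Isg20, an antiviral exonuclease, stood at 2.91, 3.01 and 2.67 and -0.48, -0.58 and 0.16. Here replicate 1 was as low as the other 2 arrays. The difference of Isg20 was -3.17 ± 0.23 (SE; adjusted p = 0.000323). The differences without LPS+curcumin replicate 1 were -7.18 for Zbp1, -4.76 for Irf7 and -3.08 for Isg15.

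Further members fell by various amounts. Gbp2, a guanylate-binding GTPase, differed by -4.95, Cmpk2, a mitochondrial nucleotide kinase, by -5.59, Ifi47 by -5.02, Ifit1, which binds viral RNA, by -3.38, and Dhx58, the RNA sensor LGP2, by -3.07. The call of Ifit1 was lost without LPS+curcumin replicate 2 (highest adjusted p over single arrays left out 0.0516). Outside the list, Batf2, Apol9b, Ifi205 and Ifit3b, named by the size of their change alone, were lower by 5.46, 5.45, 5.82 and 5.15 on the log2 scale, of which Ifi205 and Ifit3b were well above background on 2 of the 3 LPS+curcumin arrays. When LPS+curcumin replicate 1 was left out, the differences were -6.27 for Gbp2, -7.26 for Cmpk2, -6.19 for Ifi47, -4.44 for Ifit1, -6.37 for Batf2, -6.58 for Apol9b, -7.29 for Ifi205 and -6.22 for Ifit3b. Within the slides the list's median difference was -1.96, -3.98 and -4.83, and every member was lower within every slide that gave a value.

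**Figure D2:**
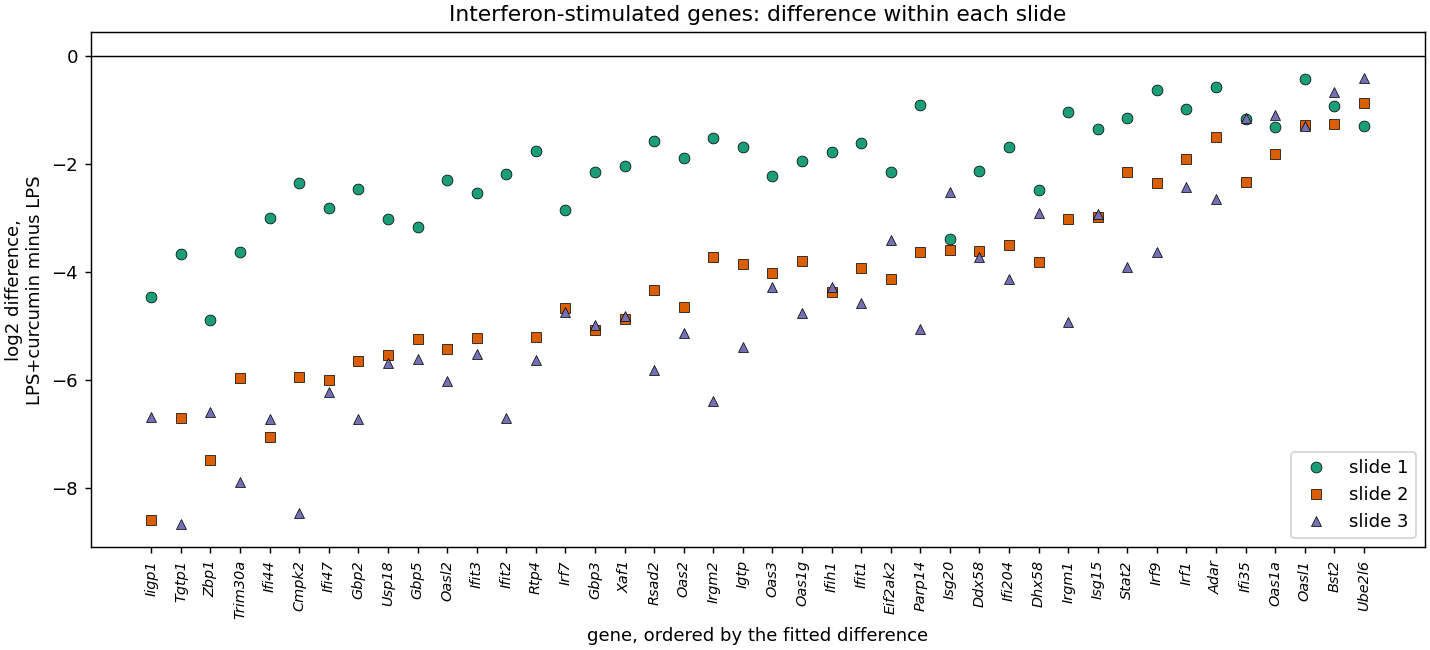
Log2 difference LPS+curcumin minus LPS (vertical axis) of 42 of the 43 interferon-stimulated genes tested (horizontal axis, ordered by the fitted difference), with 1 point for each slide that gave a value. All points lie below 0, and for most genes the circle of slide 1 lies nearer 0 than the points of slides 2 and 3 (medians -1.96, -3.98 and -4.83).

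Promoters of these genes are shown because the members moved together. RefSeq windows of the 250 bases before the start (assembly GRCm38.p6) were searched on both strands for the core of the interferon-stimulated response element (a pair of GAAA runs with 2 free bases between them), and 34 of the 43 tested members matched a window by symbol. The core occurred in 17 of the 34 (50%), in 2 of 12 chemokine genes and 2 of 16 cytokine and mediator genes, and in 3.46% of the 27025 symbols with a window. A match describes the sequence and is no evidence of binding. The sequences below are 120 bases cut from the window around the match and run 5′ to 3′ on the gene's strand, with the matches in capitals. In their labels, matches are counted back from the gene start, so "the first" is the match nearest the start and the last one printed.
Isg15 (chr4:156200820-156200939, minus strand; 3 overlapping matches, the first beginning 66 bases before the start): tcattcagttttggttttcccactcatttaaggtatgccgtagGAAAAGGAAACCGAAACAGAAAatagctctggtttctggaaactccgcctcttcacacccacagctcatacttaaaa
Ifit1 (chr19:34640749-34640868, plus strand; 2 matches, both in reverse, the first beginning 85 bases before the start): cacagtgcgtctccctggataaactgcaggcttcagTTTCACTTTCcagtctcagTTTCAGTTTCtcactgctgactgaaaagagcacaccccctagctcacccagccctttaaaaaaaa
Cxcl10 (chr5:92349020-92349139, minus strand; 1 match, the first beginning 213 bases before the start): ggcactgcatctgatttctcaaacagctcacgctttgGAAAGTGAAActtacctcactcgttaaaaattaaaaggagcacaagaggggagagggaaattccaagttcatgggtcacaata

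Inflammatory cytokines and mediators were mostly lower. Of 23 members tested, 18 were lower, 1 was higher (Il23a, a subunit of interleukin-23) and 4 were not called, with a median of -2.73; of all genes 8.73% were lower and 20.1% higher. The call of Il23a was lost without replicate 2 or 3 of either group. The counts without LPS+curcumin replicate 1 were again 18 lower and 1 higher (median -2.98). On all 5 scalings 17 of the 18 held (all but Csf1), and within the slides the median was -2.06, -3.30 and -2.25. LPS alone had raised 21 of the 23 (5.26% of all genes), and 17 of the 23 still exceeded untreated when curcumin was present. Of the 23, 18 were well above background on all arrays of both groups, of which 15 were lower and 1 higher (median -2.41). The other 5 passed the detection filter through the LPS arrays and not through the LPS+curcumin arrays. Among them Ptges had no value on LPS+curcumin replicate 2, where its spot was marked as an outlier.

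Il1b, the precursor of interleukin-1 beta, had the largest decrease of the genes named here. Its level was 5.45, 5.04 and 3.93 on the LPS arrays and -0.05, -3.42 and -3.45 on the LPS+curcumin arrays, and the difference was -7.11 ± 0.53 (SE; adjusted p = 0.000323). Replicate 1 with both agents was lower than every LPS array and higher than replicates 2 and 3. Il6, which drives the acute phase response, stood at 4.78, 4.05 and 3.72 and 0.86, -2.76 and -3.95, a difference of -6.13 ± 0.87 (SE; adjusted p = 0.00277). Its spread over the 3 LPS+curcumin arrays was 2.50 (SD) against 0.54 over the LPS arrays. Csf3, the granulocyte colony-stimulating factor, stood at 3.82, 3.18 and 2.80 and -0.82, -4.37 and -3.71, without overlap (difference -6.23 ± 0.62, SE; adjusted p = 0.000828). Il1b, Il6 and Csf3 differed by -7.90, -7.51 and -7.18 once LPS+curcumin replicate 1 was left out.

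Nos2, the inducible nitric oxide synthase of activated macrophages, had levels of -1.42, -2.25 and -2.41 with LPS and -5.36, -8.75 and -7.96 with both agents. On LPS+curcumin replicates 2 and 3 it was not well above background, so the fitted difference of -5.33 ± 0.56 (SE; adjusted p = 0.00101) rests on dim signal there. Ptgs2, the cyclooxygenase that makes inflammatory prostaglandins, stood at 2.21, 1.90 and 1.04 and 0.17, -2.82 and -3.54. Replicate 1 lay below the LPS arrays and the other 2 lay far below it (-3.78 ± 0.68, SE; adjusted p = 0.00649). Tnf, the first cytokine that LPS releases from macrophages, stood at 6.06, 5.01 and 5.02 and 5.28, 3.48 and 3.69, so that replicate 1 lay above 2 of the 3 LPS arrays and the groups overlapped. Its difference was -1.21 ± 0.25 (SE; adjusted p = 0.0103), and the call was lost without LPS+curcumin replicate 2 (adjusted p = 0.0569). Acod1, which makes the metabolite itaconate, stood at 8.04, 7.77 and 7.62 and 7.49, 4.61 and 2.69, and its call (adjusted p = 0.0225) was lost without replicate 2 or 3 of either group. Nos2, Ptgs2 and Acod1 differed by -6.19, -4.85 and -3.97 in the fit without LPS+curcumin replicate 1.

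The members named next were singled out after their values were seen. Il1a differed by -6.20 and Lcn2, an iron-carrier-binding protein, by -6.65 (-7.09 and -8.10 without LPS+curcumin replicate 1), both well above background on 1 of the 3 LPS+curcumin arrays. Hdc, which makes histamine, differed by -1.53 (adjusted p = 0.125; -0.44 without that array) and was not called. Edn1, the vasoconstrictor endothelin-1, was named by the rule and differed by -3.38, with levels of -4.45, -3.81 and -3.09 on the LPS+curcumin arrays, of which replicate 1 was the lowest.

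**Figure D3:**
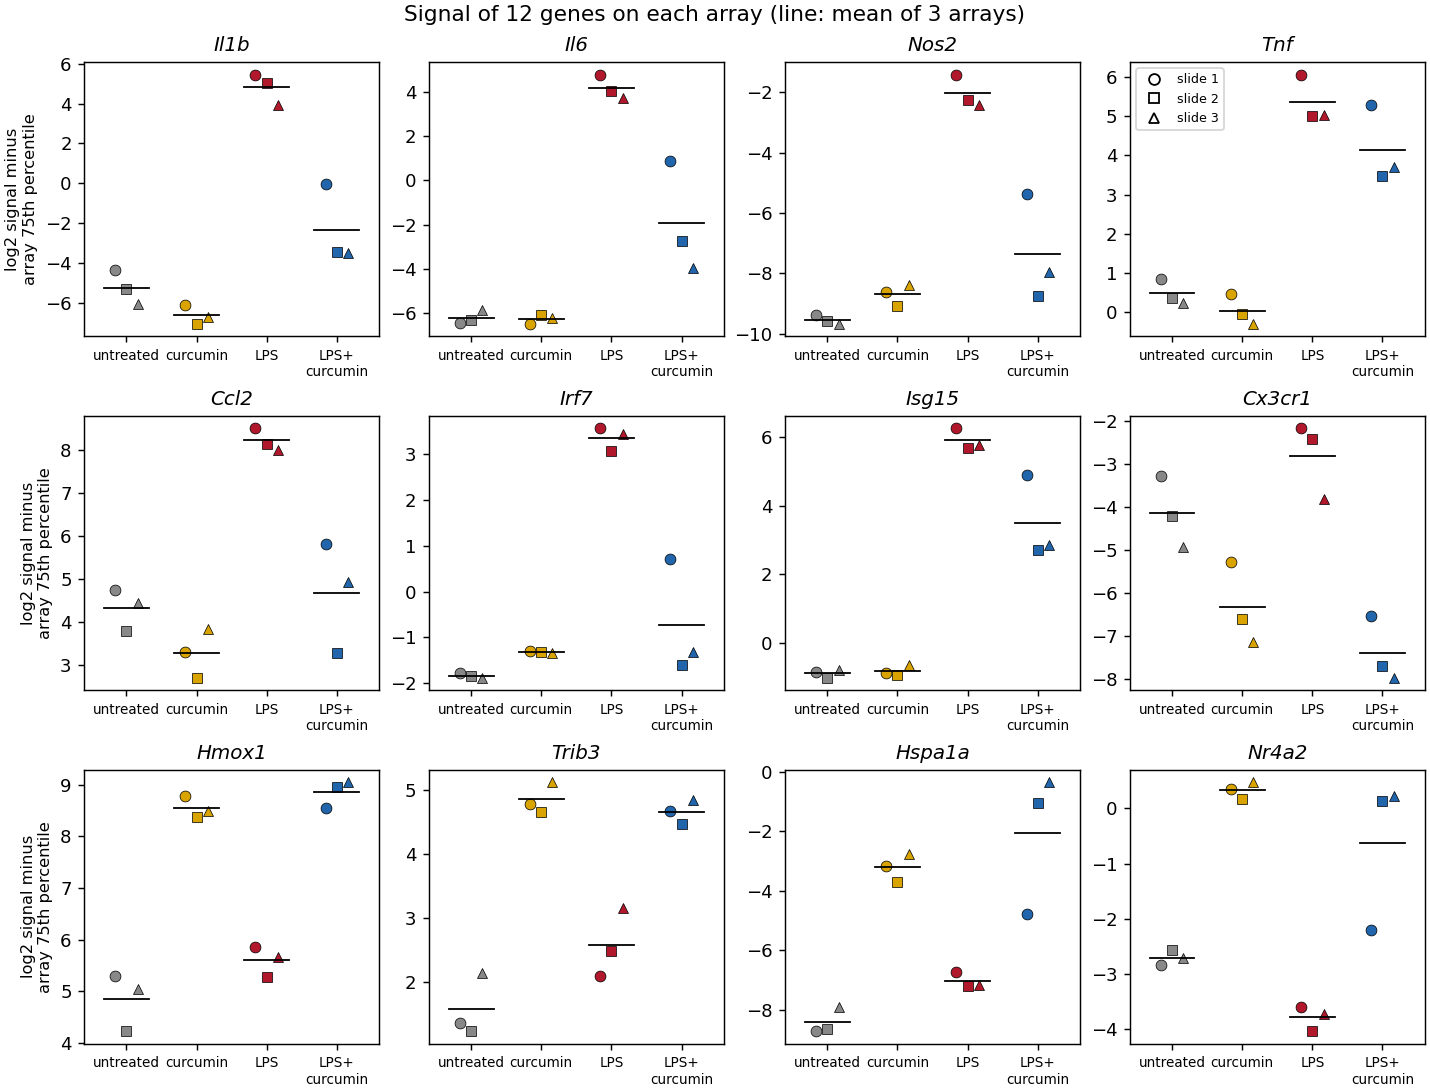
Log2 signal minus the array's 75th percentile (vertical axes, which differ between panels) of 12 genes on each of the 12 arrays, by group (horizontal axis) and slide (symbol), with a line at the mean of each group. The 8 genes of the first 2 rows are lower in LPS+curcumin than in LPS (Tnf with overlap), and the 4 of the last row are higher; the circle of LPS+curcumin slide 1 lies above the rest of its group for Irf7 and Isg15, below it for Nr4a2 and Hspa1a, and among it for Trib3.

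Chemokine genes, whose products draw monocytes, neutrophils and T cells, showed 12 of 17 tested members lower and 0 higher (8.73% and 20.1% of all genes), with a median of -1.78 (-1.89, -2.44 and -0.58 within the slides). The 12 held on all 5 scalings and numbered 12 also without LPS+curcumin replicate 1, where 2 others were called higher; 6 were lower without replicate 2 of either group. Of the 17, 13 were well above background on all arrays of both groups, of which 9 were lower (median -1.21). The other 4 passed the detection filter through the LPS arrays and not through the LPS+curcumin arrays. Ccl7, a monocyte attractant, fell most, from 5.07, 4.09 and 4.09 on the LPS arrays to -0.20, -1.68 and -3.65 on the LPS+curcumin arrays (-6.26 ± 0.51, SE; adjusted p = 0.000479). Ccl2, the main ligand of CCR2 on monocytes, stood at 8.51, 8.15 and 8.01 and 5.81, 3.27 and 4.92. All 3 arrays with curcumin were below all 3 without, by -3.56 ± 0.40 (SE; adjusted p = 0.0013). Cxcl10, a CXCR3 ligand that interferon induces, stood at 7.10, 6.43 and 6.52 and 5.20, 3.75 and 3.86, also without overlap (-2.41 ± 0.31, SE; adjusted p = 0.00204). No overlap with all 3 arrays lower was seen for 8.93% of all genes, and with all 3 higher for 18.7%.

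Ccl12 differed by -3.86 ± 0.35 (SE; adjusted p = 0.000613). Ccl8 was not well above background on any LPS+curcumin array and was at least 4.27-fold lower than with LPS (adjusted p = 0.000613). Here and below, "at least" sets the bright group's mean against the dimmest signal that counts as well above background, or the gene's own where that was higher. Ccl5, which attracts T cells and monocytes, stood at 7.96, 7.75 and 7.45 and 7.61, 5.94 and 6.22; replicate 1 overlapped the LPS arrays and the difference was -1.13 ± 0.28 (SE; adjusted p = 0.0214), a call lost without replicate 2 or 3 of either group. Ccl3 and Cxcl2, singled out after their values were seen, differed by -0.59 and -0.86 (adjusted p = 0.045 and 0.0944). The call of Ccl3 was lost when any array other than LPS+curcumin replicate 1 was left out. Cxcl2, a neutrophil attractant, was well above background on no untreated array and stood at least 274-fold above untreated with LPS and at least 151-fold with both agents.

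A form of the NF-kB site, given by the capitals below with its 5th base free, was found on either strand of the same windows in 2 of 16 cytokine and mediator genes (Csf1 and Il6), 2 of 12 chemokine genes (Cxcl2 and Cxcl3) and 0.414% of all symbols. Il6 is shown because it fell by 6.13 while Cxcl2 was not called, with the match in capitals.
Il6 (chr5:30012994-30013113, plus strand; 1 match, the first beginning 44 bases before the start): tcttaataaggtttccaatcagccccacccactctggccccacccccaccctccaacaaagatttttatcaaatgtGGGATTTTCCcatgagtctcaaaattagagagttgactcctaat

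Genes of NF-kB itself divided. Of 21 subunits, inhibitors and feedback genes tested, 10 were lower, 2 higher (Relb and Nfkbib) and 9 not called (median -0.50), or 47.6% lower beside 8.73% of all genes. The lower count fell to 6 without replicate 2 of either group or LPS replicate 3. Neither higher call was kept without replicate 2 or 3 of either group, any curcumin array or untreated replicate 2, and 1 was kept without untreated replicate 1 or 3. Leaving out LPS+curcumin replicate 1 gave 13 lower (61.9%, beside 16.5% of all genes) and 2 higher. Of the 10 lower with all arrays, 9 (all but Tnip1) held on all 5 scalings. Nfkbia, the inhibitor that NF-kB resynthesises to end its own activity and a gene singled out after its values were seen, stood at 7.67, 7.37 and 6.93 and 7.15, 6.68 and 7.59. The arrays overlapped, and the difference of -0.19 ± 0.29 (SE) was not called (adjusted p = 0.617). Of the other regulators Nfkbie, a further inhibitor, fell by 2.15, Nfkbiz, a nuclear coactivator, by 1.55, and Tnip3, a partner of the deubiquitinase A20, by 4.54 (well above background on 1 LPS+curcumin array; -5.37 without LPS+curcumin replicate 1). Birc3, a ubiquitin ligase of the TNF receptor complex, fell by 0.95 (adjusted p = 0.00613).

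Many receptor genes for microbial products were lower. Of 23 Toll-like receptors, co-receptors and adaptors, 12 were lower and 1 higher (Tlr9), with a median of -0.66; the counts were 16 and 4 without LPS+curcumin replicate 1. The share lower was 52.2% beside 8.73% of all genes, and 69.6% beside 16.5% without that array. Without replicate 2 of either group 6 were lower and without LPS replicate 3 it was 7, and the call of Tlr9 was lost in each of these fits (2 were higher without LPS replicate 1). All but Tlr4 of the 12 held on all 5 scalings. Of the 23, 20 were well above background on all arrays of both groups, of which 9 were lower and 1 higher (median -0.63). The other 3 passed the detection filter through the LPS arrays and not through the LPS+curcumin arrays. Among them Irak2 had no value on LPS+curcumin replicate 2, where its spot was marked as an outlier. Tlr3, the receptor for double-stranded RNA, differed by -4.22 ± 0.59 (SE; adjusted p = 0.00255) and was well above background on 1 LPS+curcumin array (-4.94 without LPS+curcumin replicate 1). Tlr2, the receptor for bacterial lipoproteins, stood at 6.80, 6.13 and 5.73 with LPS and 5.68, 2.59 and 1.89 with both agents, with replicate 1 just below the LPS arrays (-2.83 ± 0.49, SE; adjusted p = 0.00567; -3.62 without replicate 1). Tlr7, which senses single-stranded RNA, differed by -2.50, Cd14, the co-receptor of TLR4, by -1.54 and Irak3, an inhibitory kinase of the pathway, by -2.80. Tlr4 itself stood at -1.18, -0.68 and -0.63 and -1.07, -1.91 and -2.97, with replicate 1 among the LPS arrays. Its call (difference -1.15 ± 0.37, SE; adjusted p = 0.046) was kept without LPS replicate 1 or LPS+curcumin replicate 1 and lost without any other single array.

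Downstream, 10 of 15 interferon genes, receptors and kinases were lower and 2 higher (median -0.99), with the same counts without LPS+curcumin replicate 1. Over all genes 8.73% were lower and 20.1% higher, and without that array 16.5% and 44.9%. The lower count fell to 3 without replicate 2 of either group and to 5 without LPS replicate 3. Il10ra, the receptor chain of the anti-inflammatory cytokine interleukin-10, fell by 3.04, Irf8, a factor of the myeloid lineage, by 1.93 and Stat3 by 1.36. The 2 higher members were interferon alpha genes, Ifna2 and Ifna12. Ifna12 stood at -7.04, -6.92 and -7.21 and -5.83, -1.51 and -0.57, near the dim end of the scale on the LPS arrays and on LPS+curcumin replicate 1 (4.42 ± 0.95, SE; adjusted p = 0.0123; 6.03 without that array). Its call was lost without replicate 2 of either group or LPS replicate 3, and that of Ifna2 in these fits and without LPS+curcumin replicate 3. Of 18 negative feedback genes, 9 were lower (50%) and 2 higher (Dusp1 and Dusp4). Without LPS+curcumin replicate 1 they were 10 (55.6%) and 4 (22.2%). Without LPS replicate 2 the lower count was 5 and without LPS+curcumin replicate 2 it was 4, where Dusp1 also lost its call. Socs3, which blocks JAK signalling, fell by 3.05, Dusp6, a phosphatase of ERK, by 2.18 and Zfp36, which destabilises cytokine transcripts, by 1.08, whereas Dusp4 rose by 1.15 (not called on all 5 scalings).

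Genes that mark microglia moved in both directions. Of 28 identity genes tested, 11 were lower, 2 higher (Gas6 and Fcrls) and 15 not called; without LPS+curcumin replicate 1 they were 11 lower and 10 higher. The shares were 39.3% lower and 7.14% higher beside 8.73% and 20.1% of all genes, and without that array 39.3% and 35.7% beside 16.5% and 44.9%. Without replicate 2 of either group 6 were lower and 1 higher, and without LPS replicate 3 also 1 was higher (Fcrls lost its call in these 3 fits). Cx3cr1, the fractalkine receptor through which neurons restrain microglia, had the smallest adjusted p of the genes named here. Its level was -2.17, -2.42 and -3.82 on the LPS arrays and -6.53, -7.69 and -7.97 on the LPS+curcumin arrays, and it was lower by a like amount on every slide (-4.36, -5.27 and -4.15; difference -4.59 ± 0.23, SE; adjusted p = 6.37e-05). With both agents Cx3cr1 was well above background on 2 of the 3 arrays, so the size of its difference rests on dim signal there. P2ry13, a purine receptor, was not well above background on any LPS+curcumin array and was at least 2.55-fold lower (adjusted p = 0.00219). Spi1, the transcription factor PU.1 that defines the lineage, fell by 1.48 (adjusted p = 0.00387). Csf1r and Aif1, 2 marker genes singled out after their values were seen, differed by -0.09 ± 0.21 and -0.03 ± 0.35 (SE) and were not called (adjusted p = 0.759 and 0.949), although both were lower when scaled to the spike-in probes (-0.81 and -0.75).

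Antigen presentation genes were 7 lower (36.8%, beside 8.73% of all genes) and 1 higher of 19, and 7 and 2 without LPS+curcumin replicate 1; 3 were lower without replicate 2 of either group and 4 without LPS replicate 1. Tap1 and Tap2, the peptide transporter of class I presentation, fell by 2.46 and 1.02 and the costimulatory Cd80 by 1.35, while H2-DMa, a peptide exchanger of class II, rose from -3.95, -4.47 and -4.45 on the LPS arrays to -2.52, -1.47 and -0.99 on the LPS+curcumin arrays, without overlap (2.63 ± 0.35, SE; adjusted p = 0.00223; on all 5 scalings). All 3 arrays lay above all 3, as for H2-DMa, in 18.7% of all genes. In adhesion, migration and matrix 15 of 33 were lower (45.5%) and 2 higher. Without LPS+curcumin replicate 1 they were 17 (51.5%) and 6 (18.2%). Without replicate 2 of either group the counts were 9 and 1, and 1 was higher also without replicate 3 of either group. Of the 33, 23 were well above background on all arrays of both groups, and 7 of those were lower (median -0.41). A further 8 passed the detection filter through the LPS arrays and not through the LPS+curcumin arrays, which favours lower calls among them. Fpr2, a receptor for formyl peptides, fell by 3.76 (well above background on 1 LPS+curcumin array) and Itga4, a subunit of the integrin VLA-4, by 1.77. Mmp2, a gelatinase, was at least 1.22-fold lower and not well above background on any LPS+curcumin array (adjusted p = 0.000613). Ccr7, a homing receptor, fell by 1.86 (well above background on 1 LPS+curcumin array) and Cxcr4, the receptor of CXCL12, rose by 1.59; both were singled out after their values were seen. After normexp background correction P2ry13, Mmp2 and Ccr7, all dim with both agents, differed by 0.16, 0.31 and 0.08 and were not called.

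Genes of the oxidative stress response went the other way. Of 36 NRF2 targets tested, 21 were higher and 0 lower, against 20.1% of all genes higher, with a median of 0.70 beside 0.32 over all genes. Leaving out LPS+curcumin replicate 1 raised the count to 27 (44.9% of all genes), and leaving out replicate 2 of either group lowered it to 6 and LPS replicate 3 to 9. The count over all 19319 genes fell as well, from 3890 higher to 897 without LPS+curcumin replicate 2, 909 without LPS replicate 2 and 1376 without LPS replicate 3. Scaled to the array medians or to the spike-in probes the list's median was -0.04 and -0.02, beside -0.41 and -0.40 over all genes. Of the 36, 2 members held on all 5 scalings, Hmox1 and Aox1, a share near the 4.63% of all genes that were higher on all 5. Curcumin alone had raised 23 of the 36 above untreated (31.2% of all genes). Of the 36, 34 were well above background on all arrays of both groups, and 19 of those were higher. The other 2, Aox1 among them, passed the detection filter through the LPS+curcumin arrays and not through the LPS arrays. This favours higher calls among them.

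Hmox1, haem oxygenase 1, which degrades haem to biliverdin, iron and carbon monoxide, stood at 5.85, 5.28 and 5.68 on the LPS arrays and 8.56, 8.95 and 9.05 on the LPS+curcumin arrays. Every array with curcumin exceeded every array without, replicate 1 by somewhat less than the others, and the difference was 3.25 ± 0.25 (SE; 9.51-fold; adjusted p = 0.000393). Such separation, with all 3 arrays above all 3, was seen for 18.7% of all genes. Slc48a1, a haem transporter, differed by 1.52, and Gclm, the modifier subunit of glutathione synthesis, by 1.84. Nqo1, a quinone reductase, stood at -4.32, -3.49 and -3.16 and -1.81, -2.45 and -2.43 (1.43 ± 0.36, SE; adjusted p = 0.0215), a call lost without any 1 LPS array or LPS+curcumin replicate 2 (adjusted p up to 0.0813). Gclc, the catalytic subunit partner of Gclm and singled out after its values were seen, was not called (1.17 ± 0.44, SE; adjusted p = 0.0712). On these 3 genes slide 1 had the largest difference of the 3 slides: 2.52, 2.20 and 0.79 for Gclm, 2.51, 1.04 and 0.73 for Nqo1 and 2.34, 1.49 and -0.31 for Gclc. Sqstm1, an autophagy receptor, differed by 1.03. Txnrd1, thioredoxin reductase, differed by 0.62 ± 0.16 (SE; adjusted p = 0.0247) and took the opposite sign with the array medians or the spike-in probes (-0.11 and -0.10). Its call was also lost without replicate 2 of either group or LPS replicate 3 (adjusted p up to 0.108). Aox1, an aldehyde oxidase, was higher by 3.43 (4.72 without LPS+curcumin replicate 1), a call lost without replicate 2 or 3 of either group, with LPS+curcumin replicate 1 at -6.32 and the other 2 arrays at -1.86 and -1.91.

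Of 31 genes of the ATF4 and CHOP response, which follows amino acid shortage and endoplasmic reticulum stress, 18 were higher and 1 lower (Jdp2), with a median of 0.77; without LPS+curcumin replicate 1 they were 21 and 2. The share higher was 58.1% beside 20.1% of all genes, and 67.7% beside 44.9% without that array. Without LPS+curcumin replicate 2 the higher count was 9 and without LPS replicate 3 it was 11, and the call of Jdp2 was lost without replicate 2 or 3 of either group, untreated replicate 2 or curcumin replicate 3. Those that held on all 5 scalings were Ddit3, Trib3, Sesn2 and Chac1. Trib3, a pseudokinase induced by CHOP, stood at 2.09, 2.49 and 3.16 with LPS and 4.67, 4.46 and 4.84 with both agents, a difference of 2.08 ± 0.20 (SE; adjusted p = 0.000693) to which replicate 1 contributed as much as the others. Sesn2, a leucine sensor that restrains mTORC1, differed by 2.30 ± 0.24 (SE; adjusted p = 0.00106). Chac1, which degrades glutathione, stood at -3.95, -2.29 and -1.38 and -1.503, -0.83 and 0.70, and the 2 groups overlapped although every slide showed an increase (2.45, 1.46 and 2.08); with no slide block it was not called (adjusted p = 0.126). Ddit3, the transcription factor CHOP, differed by 1.71 ± 0.25 (SE; adjusted p = 0.00398) in a fit without LPS+curcumin replicate 2, whose spot was marked as an outlier. Eif4ebp1, a translational repressor, differed by 1.19 and Atf3 by 0.89 (adjusted p = 0.0494), a call that was kept without LPS replicate 1 or LPS+curcumin replicate 1 and lost without any other single array.

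Of 23 cytosolic heat shock genes, 6 were higher and 0 lower, a share of 26.1% near the 20.1% of all genes. It was 15 (65.2% beside 44.9%) without LPS+curcumin replicate 1, and without LPS+curcumin replicate 2 it was 3. Of the 23, 20 were well above background on all arrays of both groups, and 3 of those were higher. A further 2, Hspa1a and Hspa1b, passed the detection filter through the LPS+curcumin arrays and not through the LPS arrays. This favours higher calls among them. Hspa1a, inducible HSP70, was well above background on no LPS array and on all LPS+curcumin arrays, at -4.78, -1.04 and -0.34, and was at least 31.3-fold higher (adjusted p = 0.00492; 80.4-fold without LPS+curcumin replicate 1). Its near copy Hspa1b was at least 6.36-fold higher (adjusted p = 0.00879; 12.5-fold without LPS+curcumin replicate 1), a call lost without LPS+curcumin replicate 2, and probes of such near-identical genes may share signal. Hsf2, a heat shock factor, differed by 1.20. Of 19 endoplasmic reticulum chaperones and sensors, 7 were higher and 0 lower (11 and 1 without LPS+curcumin replicate 1), among them Hspa5 (BiP), by 1.04, and Ern1 (IRE1 alpha), by 1.27, neither on all 5 scalings. The 7 are 36.8% of the list and the 11 are 57.9%, beside 20.1% and 44.9% of all genes. The higher count was 3 without replicate 2 of either group. It was 4 without replicate 1 or 3 of LPS, LPS+curcumin replicate 3, any curcumin array or untreated replicate 2 or 3.

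Promoters of both responses are shown with the motifs searched. TGATGNAA, the composite site of ATF4 with C/EBP factors, occurred in 7 of 27 promoters of the ATF4 list and 3.91% of all symbols. TGACNNNGC, the core of the antioxidant response element, occurred in 8 of 29 promoters of the NRF2 list (27.6%) and 11.5% of all symbols. The same core occurred in 6 of 27 promoters of the ATF4 list (22.2%) and in 13.7% of the genes tested. Both motifs were searched on both strands and could overlap each other, and the capitals mark the matches.
Chac1 (chr2:119350993-119351112, plus strand; ATF4 composite site in reverse, the first beginning 193 bases before the start): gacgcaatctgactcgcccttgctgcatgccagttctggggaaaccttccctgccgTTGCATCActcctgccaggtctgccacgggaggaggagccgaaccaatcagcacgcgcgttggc
Gclm (chr3:122245367-122245486, plus strand; antioxidant response element in reverse, the first beginning 134 bases before the start): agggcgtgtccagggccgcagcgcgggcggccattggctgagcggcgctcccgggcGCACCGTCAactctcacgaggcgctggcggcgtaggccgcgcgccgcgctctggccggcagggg

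Immediate early factors were 6 lower (28.6%) and 3 higher (14.3%) of 21, beside 8.73% and 20.1% of all genes. Without LPS+curcumin replicate 1 they were 9 (42.9%) and 4 (19%), beside 16.5% and 44.9%. They were 3 and 1 without replicate 2 of either group. Fos fell by 1.95 and Ier2 by 0.999, while Nr4a2, an orphan nuclear receptor, rose from -3.59, -4.04 and -3.73 on the LPS arrays to -2.21, 0.12 and 0.22 on the LPS+curcumin arrays (3.16 ± 0.50, SE; adjusted p = 0.00401; 3.97 without replicate 1). Of 22 p53 targets and BCL2 family genes, 5 were lower (22.7%) and 2 higher. Without LPS+curcumin replicate 1 they were 7 (31.8%) and 3 (13.6%), beside 16.5% and 44.9% of all genes. The lower count was 3 without LPS replicate 2 or 3 and 2 without LPS+curcumin replicate 2. The survival genes Bcl2a1b and Bcl2l1 fell by 2.61 and 2.23 (Bcl2a1b differed by -3.21 without LPS+curcumin replicate 1), the death receptor Fas fell by 2.03 (a call lost without LPS+curcumin replicate 2), and Trp53inp1, a p53 cofactor, rose by 2.80. In cholesterol synthesis and uptake 3 of 22 were lower (13.6%) and 2 higher (9.09%), or 3 and 10 (45.5%, beside 44.9% of all genes) without LPS+curcumin replicate 1. None was higher without replicate 2 or 3 of either group, and 1 was without any curcumin array or untreated replicate 2. Hmgcs1, the first committed enzyme, fell by 1.93 and Msmo1, a sterol oxidase, by 0.97 (a call lost without replicate 2 of either group). In glycolysis and hypoxia response 3 of 24 were lower and 3 higher, each 12.5% beside 8.73% and 20.1% of all genes. They were 3 and 14 (58.3% higher beside 44.9%) without LPS+curcumin replicate 1, and without LPS+curcumin replicate 3 the lower count was 6. Members called were Hk2 (hexokinase 2), which fell by 1.58, Pfkfb3, which fell by 1.23, and Vegfa, which rose by 1.61.

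In alternative activation, the programme that interleukin-4 induces in macrophages, 3 of 16 were higher (18.8%) and 2 lower (12.5%), shares near those of all genes. Without LPS+curcumin replicate 1 they were 8 (50%) and 5 (31.2%), beside 44.9% and 16.5% of all genes. The higher count was 1 without replicate 2 or 3 of either group; none was lower without LPS replicate 2, and 1 without LPS replicate 1 or LPS+curcumin replicate 2. Il4 differed by 1.86, but not on all 5 scalings, and Il13ra1 by -0.83, a call lost without LPS replicate 2 (adjusted p = 0.0528). Arg1 (arginase 1) differed by 0.89 ± 0.51 (SE; adjusted p = 0.194) and was not called, though it was without LPS+curcumin replicate 1 (1.62). The counts of several lists moved with replicate 1. Called higher were 3 of 29 DNA replication genes (10.3%, Cdc6 by 0.74), 3 of 28 G2/M genes (10.7%) and 8 of 24 lysosome and autophagy genes (33.3%, Ulk1 by 1.26). So were 1 of 26 respiratory chain genes (3.85%, Ndufa1 by 0.77) and 1 of 24 proteasome genes (4.17%), beside 20.1% of all genes. In any of these lists 0 were lower. In the fit without LPS+curcumin replicate 1 the respective counts higher were 21, 6, 19, 26 and 17. These are 72.4%, 21.4%, 79.2%, 100% and 70.8%, beside 44.9% of all genes. In that fit 4 G2/M genes were lower (14.3%, beside 16.5% of all genes). The replication count was 0 without replicate 2 or 3 of either group and 1 without LPS replicate 1 or any curcumin array. The G2/M count was 0 without replicate 2 of either group and 1 without replicate 3 of either or any untreated or curcumin array. The lysosome count was 4 without LPS replicate 2 or 3, LPS+curcumin replicate 2, any curcumin array or untreated replicate 2, and 5 without untreated replicate 1 or 3. The proteasome call was lost without replicate 2 or 3 of either group. The call of Ndufa1 was kept only without LPS replicate 1 (where 2 respiratory chain genes were called) or LPS+curcumin replicate 1, with adjusted p up to 0.165 over single arrays left out. That of Cdc6 was lost without any 1 LPS array or replicate 2 or 3 of LPS+curcumin. The medians of the replication, lysosome, respiratory chain and proteasome lists were 0.49, 0.50, 0.54 and 0.46, and turned to -0.23, -0.22, -0.18 and -0.26 when scaled to the spike-in probes, and 0 members of these lists were higher on all 5 scalings. The G2/M median was 0.09 (-0.63 with the spike-in probes), beside 0.32 (-0.40) over all genes.

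**Figure D4:**
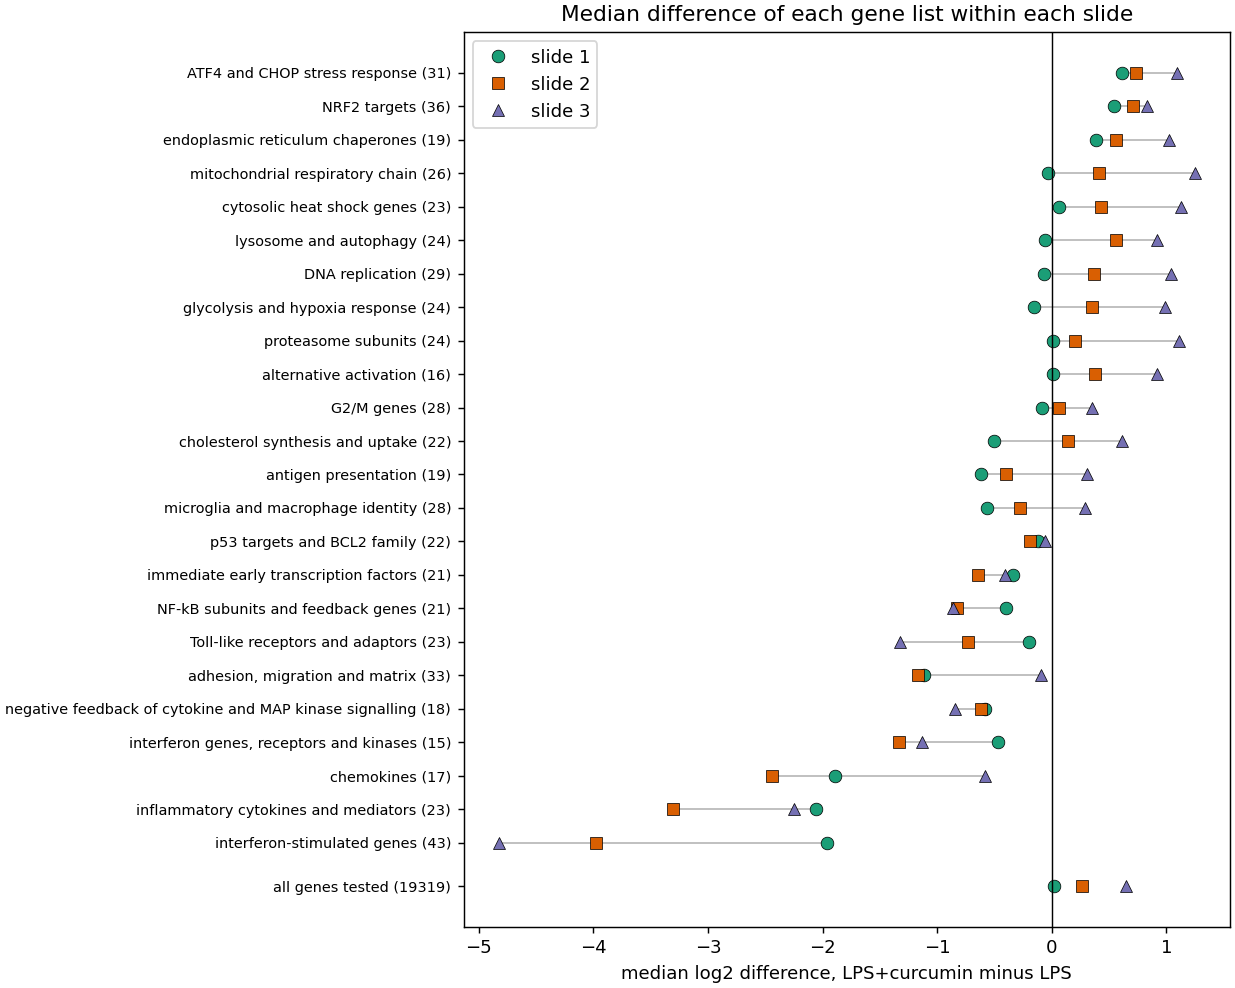
Median log2 difference LPS+curcumin minus LPS (horizontal axis) of 24 gene lists (vertical axis, with the number of genes tested) and of all genes, within each of the 3 slides. The interferon-stimulated genes lie farthest from 0 on slides 2 and 3 (-3.98 and -4.83) and the cytokines and mediators on slide 1 (-2.06, beside -1.96 for the interferon-stimulated genes), the NRF2 and ATF4 lists lie above 0 on every slide, and the respiratory chain list, like all genes, is near 0 on slide 1 and highest on slide 3.

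The genes named for the largest increases were dim with LPS and belong to none of these lists. Hepacam, a cell adhesion protein of glia, stood at -6.70, -5.80 and -6.05 on the LPS arrays and -1.997, -0.05 and 0.50 on the LPS+curcumin arrays (5.67 ± 0.43, SE; 50.8-fold; adjusted p = 0.000323). Colec11, a collectin, followed at 5.36, Lin7b at 4.995, Lct (lactase) at 4.76, Plin1 (perilipin of lipid droplets) at 4.26, Baalc at 4.22, Ascl3 at 4.13 and the receptor Gpr83 at 4.13, all called on all 5 scalings. The call of Lct was lost without LPS replicate 2 (adjusted p = 0.0529). Without LPS+curcumin replicate 1 the differences were 6.26 for Hepacam, 6.54 for Colec11, 6.50 for Lin7b, 6.31 for Lct, 5.09 for Plin1, 5.20 for Baalc and 5.17 for Gpr83. For others replicate 1 stayed near the LPS arrays: Cyp2c23, an arachidonate epoxygenase, stood at -7.41, -6.99 and -7.15 with LPS and -6.69, -1.37 and -0.70 with both agents, Scarf1, a scavenger receptor, at -7.65, -6.65 and -7.18 and -7.00, -1.07 and -0.48, and Cpne9 at -6.16, -7.66 and -6.92 and -5.98, -1.65 and -0.80. The differences of 19.1-fold, 19.8-fold and 17.2-fold (adjusted p = 0.0222, 0.028 and 0.0237) became 67.9-fold, 78.3-fold and 59-fold without LPS+curcumin replicate 1. All 3 calls were lost without replicate 2 or 3 of either group. Gramd1c, Hkdc1 and Ampd1 were well above background on no LPS array and were at least 97.6-fold, 47.9-fold and 42.8-fold higher (adjusted p = 0.00055, 0.00759 and 0.00411), Ampd1 with no value on LPS+curcumin replicate 2. These bounds were 197-fold, 228-fold and 215-fold without LPS+curcumin replicate 1. In the other direction Ms4a4c, Wfdc21 and Sprr2d were well above background on all LPS arrays and no LPS+curcumin array, and were at least 7.09-fold, 6.51-fold and 5.61-fold lower (adjusted p = 0.00223, 0.00784 and 0.00426).

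Whether curcumin's effect with LPS differed from its effect without LPS was tested as an interaction, the LPS+curcumin minus LPS difference less the curcumin minus untreated difference. It was called for 229 genes, 214 lower (1.11%) and 15 higher (0.0776%), and for 609 without LPS+curcumin replicate 1 (517 lower, 2.68%, and 92 higher, 0.476%). With no slide block 141 were called, and with slide 2 left out 0 (785 at an unadjusted p below 0.05 by the same limma fit). It fell by over 1.5 times without any 1 array of the untreated group (112 to 126), curcumin replicate 2 (114) or 3 (86), LPS replicate 1 (126) or 2 (104), or LPS+curcumin replicate 2 (127). Of the 229, 61 were lower with LPS and higher without it, 133 were lower with LPS and not called without it, and 214 had been raised by LPS alone (5.26% of all genes had). The LPS and untreated arrays enter both the interaction and the difference of LPS from untreated. A lower interaction thus favours genes raised by LPS, and the count of 214 is a description. Of the 229, 62 were well above background on no untreated array, where a decrease by curcumin could not have been measured. The list counts were 16 of 43 interferon-stimulated genes, 11 of 23 cytokines and mediators, 3 of 17 chemokines and 0 of 36 NRF2 targets.

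Csf3 was well above background on no untreated array. It was at least 9.49-fold higher than untreated with curcumin alone and at least 1620-fold with LPS alone, whereas curcumin added to LPS lowered it by 6.23 on the log2 scale (interaction adjusted p = 0.000955). Isg20, measured in all groups, likewise rose with curcumin alone, by 2.52, and fell when it accompanied LPS. Hdc rose by 5.20 with curcumin alone, and with LPS it was not called. Il1b, Irf7 and Zbp1 differed from untreated by -1.37, 0.51 and 0.29 with curcumin alone, against -7.11, -4.09 and -6.32 with LPS; Il1b was well above background on 1 of the 3 arrays with curcumin alone. For Hmox1 the difference was 3.69 without LPS and 3.25 with it (interaction -0.44, adjusted p = 0.891, not called). Trib3 and Sesn2 differed by 3.27 and 2.99 without LPS and by 2.08 and 2.30 with it, and neither interaction was called (adjusted p = 0.117 and 0.66). That of Trib3 was called without LPS+curcumin replicate 1 (-1.33, adjusted p = 0.0327) and that of Sesn2 was not (adjusted p = 0.593). Chac1 rose by 4.03 without LPS and 1.997 with it, which did differ (adjusted p = 0.0464).

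**Figure D5:**
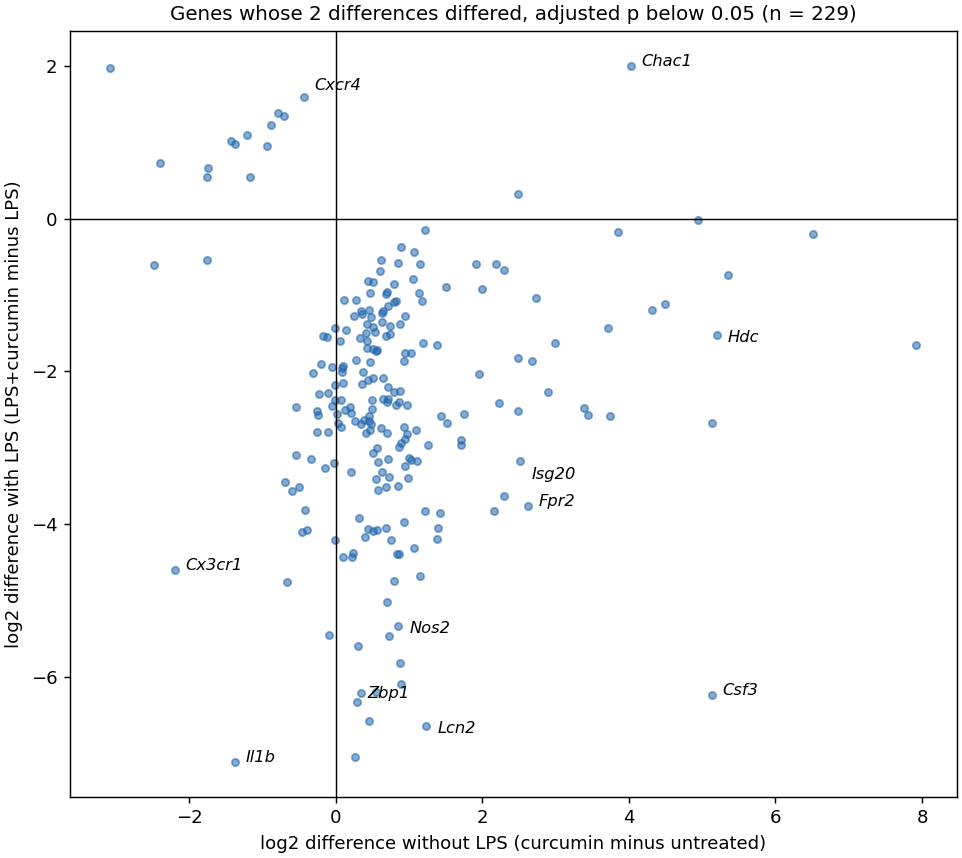
The 229 genes with an interaction at an adjusted p below 0.05, by the log2 difference curcumin minus untreated (horizontal axis) and LPS+curcumin minus LPS (vertical axis). Most lie below 0 on the vertical axis and near or above 0 on the horizontal one, and Csf3 lies at the lower right (5.13 and -6.23), its horizontal position resting on untreated signal not well above background; the genes were selected by the difference between the axes.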

How the data were processed

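Total RNA of BV-2 cells was hybridised to 12 1-colour Agilent arrays of 45018 spots, 3 arrays a group. The authors deposited scanner output whose intensity values, per the file headers, came from Agilent Feature Extraction 10.5.1.1 (9.1 per the submitters' processing notes), background-subtracted by the scanner software, and a deposited value table of the same linear intensity, which differed from the processed signal by at most 0.397%. The number of arrays limits the precision. Control spots (1639) and outlier spots were left out, and replicate spots of a probe were averaged. LPS+curcumin replicate 2 lost 654 of the tested genes this way, which were fitted without it. Log2 signals were computed from the deposited intensity and set relative to each array's 75th percentile. The probe with the highest mean stood for a gene, and genes entered the test if any group had them well above background on each of its 3 arrays. limma 3.58.1 (R 4.3.3) fitted all 12 arrays with the replicate number, which is the slide and scan per the file headers, as a block; p-values are two-sided and adjusted by Benjamini-Hochberg over 19319 genes, of which 12659 have a symbol (16077 of 41174 probes have none). On simulated data of 18616 genes the fit recovered 26% of changes of 1 and 76% of changes of 2 on the log2 scale, with 3 false calls. The simulation changed 200 genes and drew independent noise, of the same spread on all 12 arrays for a gene. It held no array that departs from its group, so its false calls give no error rate for the real arrays.

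Genes were named by rule: the 12 largest differences in each direction with the same direction on all slides and signal in both groups, the 8 largest without LPS+curcumin replicate 1, the 3 largest bounds, up to 4 members a list with the smallest adjusted p, and 25 fixed genes; the text names fewer, and says where a gene was added after its values were seen. The members and lists were chosen with earlier results of these data known. Genes with several probes numbered 4849, and 47 of them had opposite calls between probes, among them Insig1. The planned background alternative (normexp, offset 50) used the median spot signal, as the scanner files used here give no mean signal. Promoter sequences are from RefSeq. Some genes of the lists are counted and not reported by name here.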

Additional observations from a re-analysis of the deposited data

Results flagged for a closer look

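The effect of curcumin differed between cells with and without LPS, by the interaction test, for 229 genes. Among the genes named here and well above background on all untreated arrays, the difference of the 2 effects on the log2 scale was -6.72 for Hdc, -6.61 for Zbp1, -6.18 for Batf2, -5.74 for Il1b, -5.69 for Isg20, -5.36 for Apol9b, -5.28 for Ccl12, -4.59 for Irf7, -4.11 for Edn1, -3.99 for Fas, -3.58 for Dhx58, -2.41 for Tap1 and -2.40 for Cx3cr1. For Chac1, which rose with curcumin in both settings, it was -2.03. For Cxcr4 alone of the named genes it was positive, at 2.03. The fitted values of Csf3 (-11.36), Lcn2 (-7.89), Il1a (-6.76), Ifi205 (-6.69), Fpr2 (-6.39), Nos2 (-6.19), Ms4a4c (-4.64), Ccr7 (-4.54), Ccl8 (-4.19) and Mmp2 (-3.11) rest on untreated signals that were not well above background on any array, so their sizes are not measured and have no order. These genes were named with their interaction known, and 49 of the 229 were well above background on no untreated and no curcumin array.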

How the results depend on the processing

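The count of genes called (5577: 3890 higher, 1687 lower) moved with the processing. Under quantile, median and spike-in scaling 2089, 1258 and 1171 were higher, and under the last 2 scalings 4647 and 3642 lower. After normexp 85 were called (9 higher, 76 lower); the cause was not tested. With no replicate block 3619 were called (2461 higher, 3609 shared in direction), and 141 interactions in place of 229. With only the 6 arrays, in the fit with the replicate block, 1315 were called (837 and 478). Fewer arrays estimate the spread there, and the main fit takes 1 spread for a gene over all 4 groups, which the groups need not share. The cause of the lower count was not tested. With array weights, which gave LPS+curcumin replicates 1, 2 and 3 weights of 0.0913, 4.07 and 0.125, 11830 were called (8159 and 3671) and 1543 interactions. Without LPS+curcumin replicate 1 and without the block 10583 were called (7717 and 2866) and 437 interactions. Leaving out 1 array or 1 slide gave 3 to 11869 called, 0 to 8673 higher, 3 to 3196 lower and 0 to 609 interactions, and the 75th percentile relative to the spike-in probes, LPS+curcumin minus LPS, ran from -1.14 to -0.37; the lowest counts are those without slide 2. Chosen after seeing the data, scaling and leaving out LPS+curcumin replicate 1 together gave 9698 called with quantile scaling (4815 higher, 4883 lower), 10394 with the median (1832, 8562), 10851 with the spike-ins (1768, 9083) and 12161 with the always-detected probes (8800, 3361). The value table gave the same calls. No filter (4163 of 32665 called), detection on all 12 arrays (4543 of 15818) and the mean over probes (5708) kept the count within 1.5 times.

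Of 120 genes followed singly, 115 kept call and direction under quantile scaling, 104 under median scaling, 102 under spike-in scaling, 27 after normexp (90 lost the call), 112 with no block, 119 without slide 1, 8 without slide 2 and 62 without slide 3. Those that reversed were Txnrd1 (-0.11 and -0.10 under median and spike-in scaling), and P2ry13, Mmp2 and Ccr7 after normexp (0.16, 0.31 and 0.0772). Without LPS+curcumin replicate 1, Txnrd1 reached -0.0437, -0.45 and -0.49 under quantile, median and spike-in scaling, and under the last 2 Nqo1 -0.15 and -0.19, Cdc6 -0.18 and -0.22, and Ndufa1 -0.0024 and -0.0403. Arrays of the same number shared a slide, but deviations from the group means of the paired LPS and LPS+curcumin arrays correlated across genes at 0.177, 0.114 and -0.0195, and LPS replicates 1, 2 and 3 matched LPS+curcumin replicates 1, 3 and 2 best.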
